A study of Homo sapiens with 21 samples.

Results

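Hepatocyte transcription factors were described from RNA sequencing counts as 8 genes of 53515, taken as the rows whose Ensembl identifiers belong to HNF4A, FOXA1, FOXA2, FOXA3, CEBPA, PROX1, NR1H4 and NR5A2. The study sequenced 17 cancer cell lines in 21 libraries, 7 parental and 10 made resistant to a drug by raising its dose stepwise over months. HepG2, a liver cancer line, gave the sorafenib-resistant HepG2S1 and HepG2S3, and these 3 lines are placed in front. The other pairs were PancVB (a Panc 03.27 pancreatic line) with the 5-fluorouracil-resistant PancB1Q and PancB1V, the lung lines HCC4006P1 with the erlotinib-resistant HCC4006ER, HCC4006P2 with the gefitinib-resistant HCC4006GR and HCC827P with the gefitinib-resistant HCC827GR, and the ovarian lines UWB1.289 (U10 and U100, resistant to olaparib) and IGROV-1 (IGROV-1/CDDP, resistant to cisplatin). The paper gives HCC4006P1 and HCC4006P2 the same cell line identifier. Replicate libraries, 2 each, exist for 4 lines (both members of the HCC4006P1 pair, HepG2 and HepG2S3), and 13 lines had 1. The HepG2 lines were grown in William's E medium and all others in RPMI, so that tissue and medium cannot be told apart between them, while within each pair the medium was shared. The labels do not say that the 2 libraries of a line came from separate cultures, so p-values measure only the spread between these libraries, which may be technical.

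Libraries held between 9851195 and 36639473 counts on genes, and HepG2S1 was the shallowest. Levels are CPM, a gene's share of its library's counts scaled to 1000000, intervals are 95% Wilson intervals that cover counting error only, and 3 counts were taken as the floor of detection, or 0.305 CPM in HepG2S1 and 0.0819 CPM in HepG2 replicate 1, the deepest library. HCC4006P1 replicate 1 has no counts beyond a point of chromosome 7 in the file's order, and 1679 later genes with 50 or more counts in replicate 2 had none. No member lies past that stop, but every CPM of that library is too high for want of those genes, which held 18.1% of the counts of replicate 2.

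HNF4A, NR1H4 (the bile acid receptor FXR) and NR5A2 (LRH-1) are nuclear receptors, FOXA1, FOXA2 and FOXA3 are forkhead factors that can bind closed chromatin, CEBPA is a leucine zipper factor of differentiated cells, and PROX1 is a homeobox factor of the embryonic liver and of lymphatic endothelium. In hepatocytes these factors bind the promoters and enhancers of one another and of the genes for plasma proteins, metabolic enzymes and bile acid handling. Several of them also act elsewhere: FOXA1 and FOXA2 in lung, pancreas and other endoderm, and NR5A2 in the exocrine pancreas and ovary.

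Windows around the transcription start sites of these genes were searched for binding motifs of FOXA, HNF4, CEBP and NR5A factors, and of HNF1, which is not a member. Windows of RefSeq on GRCh38.p14, each from 250 bases before to 50 bases after a start site, were at hand for 6 of the 8 members, in 8 windows, and none was at hand for FOXA2 and PROX1. On both strands, the HNF1 motif GTTAAT, one arm of its palindrome, was found in 3 of the 8 windows and in 6.88% of all 35116 windows. The FOXA motif TGTTTAC was found in 1 of 8 and in 3.42% of all, the HNF4 motif CAAAGTC in 1 of 8 and in 3.37% of all, the CEBP motif TTGCNNAA in 0 of 8 and in 10.5% of all, and the NR5A motif AAGGTCA in 0 of 8 and in 3.92% of all. The 6 matches did not overlap. Shown are the 250 bases before the start site, with matches in capitals, of the 3 windows that hold one and of the other HNF4A window, which holds none. The downstream HNF4A window (chr20:44400989-44401238, + strand) carries 2 HNF1 motifs whose first bases lie at -73 and -66 from the start site, and is the one known as P1, the main promoter of adult hepatocytes. The upstream window (chr20:44355449-44355698, + strand) is that of P2, used in pancreas and fetal liver. NR1H4 (chr12:100503110-100503359, + strand) has an HNF1 motif at -53, and the downstream NR5A2 window (chr1:200042341-200042590, + strand) has an HNF4 motif at -147, a FOXA motif at -105 and an HNF1 motif at -27.
HNF4A P1: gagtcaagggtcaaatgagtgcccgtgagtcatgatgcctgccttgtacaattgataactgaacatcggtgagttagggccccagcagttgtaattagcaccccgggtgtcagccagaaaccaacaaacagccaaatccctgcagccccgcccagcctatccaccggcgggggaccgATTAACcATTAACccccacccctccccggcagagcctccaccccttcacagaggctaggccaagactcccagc
HNF4A P2: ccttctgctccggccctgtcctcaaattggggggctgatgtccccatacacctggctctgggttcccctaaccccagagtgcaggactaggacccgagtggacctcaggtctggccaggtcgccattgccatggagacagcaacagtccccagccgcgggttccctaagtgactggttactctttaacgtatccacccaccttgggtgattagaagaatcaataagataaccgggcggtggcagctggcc
NR1H4: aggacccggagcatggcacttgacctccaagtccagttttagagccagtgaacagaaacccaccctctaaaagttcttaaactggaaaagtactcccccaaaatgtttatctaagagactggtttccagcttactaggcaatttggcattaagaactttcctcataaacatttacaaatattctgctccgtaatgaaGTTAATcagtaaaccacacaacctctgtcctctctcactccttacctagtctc
NR5A2 downstream window: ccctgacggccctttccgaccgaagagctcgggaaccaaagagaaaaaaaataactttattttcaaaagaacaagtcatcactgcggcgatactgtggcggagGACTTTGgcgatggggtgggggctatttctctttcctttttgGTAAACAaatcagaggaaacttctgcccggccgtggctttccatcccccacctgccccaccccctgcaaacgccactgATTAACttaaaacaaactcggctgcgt
A match is no binding site, and counts per gene do not show which promoter was used.

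The first comparison asked how far the liver program of HepG2 was kept in its sorafenib-resistant derivatives. In HepG2, 7 of the 8 genes stood between 21.1 and 226 CPM and NR5A2 was the exception. In HepG2S3, the same 7 fell (edgeR quasi-likelihood test, Benjamini-Hochberg adjusted p under 0.05), beside 32.1% of all 16929 genes tested that were lower and 31.4% that were higher. The filter keeps a gene for its counts in either line. FOXA2, FOXA3, PROX1 and NR1H4, with at most 6 counts per HepG2S3 library, were thus tested through HepG2 and could only fall. HNF4A, FOXA2, FOXA3, PROX1 and NR1H4 were left below 1 CPM in both resistant lines, while CEBPA and FOXA1 kept measurable levels. In these bulk libraries, fewer cells that express a gene and less RNA per cell cannot be told apart. The paper reports small copy number differences between resistant and parental lines except in the HepG2 pairs. The part of copy number in these changes was not tested.

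HNF4A (ENSG00000101076, chr20:42984339-43061485 of GRCh37, + strand) had 226 and 211 CPM in the 2 HepG2 libraries, 0.812 CPM from 8 counts in HepG2S1, and 0.437 and 0.424 CPM from 14 and 13 counts in HepG2S3. All 3 resistant libraries lay far below both HepG2 libraries, with no overlap of their counting intervals. On linear CPM, HNF4A was 269-fold lower in HepG2S1 (95% counting interval 137 to 623) and 507-fold lower in HepG2S3 (348 to 770). The edgeR log2 fold change in HepG2S3 was -9.29 ± 0.19 (SE), with an adjusted p of 2.59e-05. Here and below, the edgeR SE is the size of the log2 fold change over the square root of its quasi-likelihood F statistic. DESeq2 gave a larger SE for every member in HepG2S3, among them 0.333 for HNF4A, 0.768 for NR1H4 and 1.05 for FOXA2. Its antisense neighbour HNF4A-AS1, chosen here after its values were seen, had 33 and 46 counts in HepG2 and none in the resistant lines, and how the counting treated strand is not stated.

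PROX1 (ENSG00000117707, chr1:214156524-214214853, + strand) had 206 and 208 CPM in HepG2, 0 counts in HepG2S1, and 0.187 and 0.196 CPM from 6 counts each in HepG2S3. It was at least 679.8-fold lower in HepG2S1, against a floor of 3 counts, and 1081-fold lower in HepG2S3 (619 to 2092). PROX1 was the member with the closest levels in the HepG2 libraries. Its edgeR log2 fold change was -10.36 ± 0.20 (SE), with an adjusted p of 2.59e-05. The antisense PROX1-AS1, chosen after its values were seen, had 51 and 66 counts in HepG2 and none in HepG2S1 and HepG2S3.

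NR1H4 (ENSG00000012504, chr12:100867486-100958192, + strand), which senses bile acids and lowers their synthesis, had 86.1 and 64.5 CPM in HepG2. One count was left in HepG2S1 (0.102 CPM) and 2 counts in each HepG2S3 library (0.0625 and 0.0653 CPM), all at or below the floor. The linear ratio was 745-fold lower in HepG2S1 (134 to 29414) and 1184-fold lower in HepG2S3 (462 to 4346). In edgeR the log2 fold change was -10.43 ± 0.33 (SE), with an adjusted p of 3.82e-05.

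The 3 FOXA genes differed in the share that was left. FOXA2 (ENSG00000125798, chr20:22561636-22566093, - strand) had 42.8 and 37.6 CPM in HepG2, 0 counts in HepG2S1, and 2 and 0 counts in HepG2S3. FOXA3 (ENSG00000170608, chr19:46367247-46377055, + strand) had 45.6 and 21.1 CPM in HepG2, 1 count in HepG2S1, and 0 and 3 counts in HepG2S3. The resistant libraries of both genes lay at or below the floor, and FOXA3 had the widest ratio between the HepG2 libraries of the 8 members. FOXA2 was at least 132-fold lower in HepG2S1 and 1262-fold lower in HepG2S3 (349 to 10422), with an edgeR log2 fold change of -10.44 ± 0.48 (SE) and an adjusted p of 7.32e-05. FOXA3 was 332-fold lower in HepG2S1 (59.5 to 13117) and 704-fold lower in HepG2S3 (241 to 3415), with an edgeR log2 fold change of -9.64 ± 0.81 (SE) and an adjusted p of 0.000432. FOXA1 (ENSG00000129514, chr14:38058757-38065264, - strand) had 99.7 and 82.5 CPM in HepG2 but kept 12.0 CPM (118 counts) in HepG2S1 and 7.87 and 8.26 CPM (252 and 253 counts) in HepG2S3. It was 7.62-fold lower in HepG2S1 (6.35 to 9.23) and 11.3-fold lower in HepG2S3, where the edgeR log2 fold change was -3.81 ± 0.17 (SE) with an adjusted p of 7.32e-05. FOXA1 was thus the called member with the smallest change, and its counting interval in HepG2S1 did not reach that of any HepG2 library. TTC6, a gene on the other strand that overlaps FOXA1, had 98 and 32 counts in HepG2.

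CEBPA (ENSG00000245848, chr19:33790840-33793440, - strand) had 101 and 82.3 CPM in HepG2, 2.23 CPM (22 counts) in HepG2S1, and 2.56 and 3.10 CPM (82 and 95 counts) in HepG2S3. Per kb of exon it was the highest member in HepG2, at 38.7 and 31.6 CPM per kb, ahead of NR1H4 (23.7 and 17.8), PROX1 (23.2 and 23.4), FOXA1 (22.6 and 18.7) and HNF4A (22.2 and 20.8). It was 41.1-fold lower in HepG2S1 and 32.5-fold lower in HepG2S3, with an edgeR log2 fold change of -5.33 ± 0.21 (SE) and an adjusted p of 5.29e-05. CEBPA was thus placed between FOXA1 and the 5 members that were left below 1 CPM in its share of the HepG2 level.

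NR5A2 (ENSG00000116833, chr1:199996742-200146548, + strand), a partner of NR1H4 in the control of bile acid synthesis, was nearly absent from HepG2 itself, at 0.682 and 1.41 CPM (25 and 49 counts). HepG2S1 had 0.711 CPM (7 counts), and HepG2S3 had 0.656 and 0.783 CPM (21 and 24 counts). The resistant libraries lay within or beside the range of the HepG2 libraries. Its edgeR log2 fold change of -0.84 ± 0.44 (SE) did not pass the test, with an adjusted p of 0.145. Without HepG2 replicate 1, where the lone HepG2 library is assumed to vary as HepG2S3 did, NR5A2 was called at -1.28 with an adjusted p of 0.00295.

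**Figure D1:**
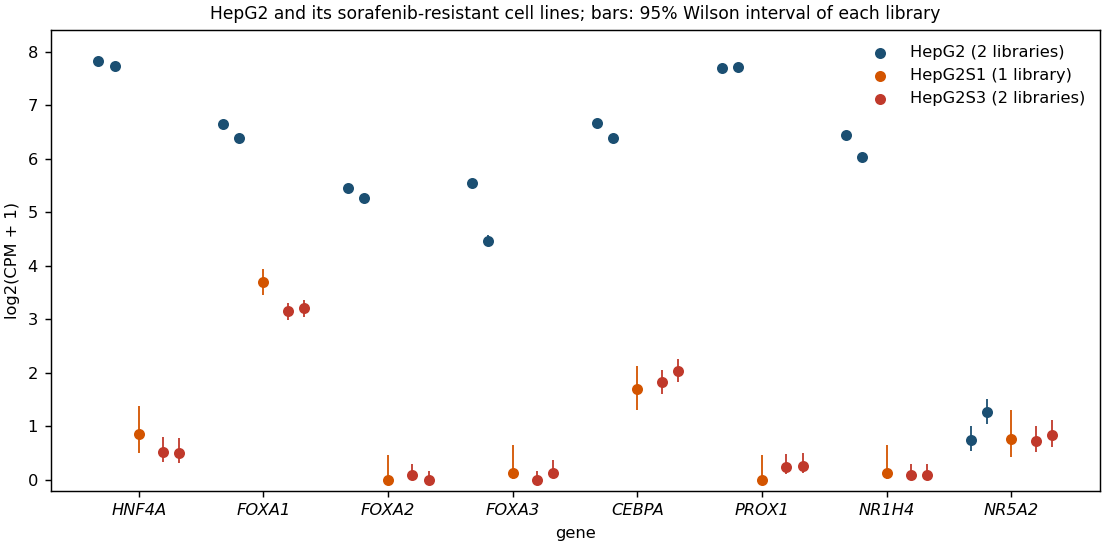
Level as log2(CPM + 1) of the 8 members in the 5 HepG2, HepG2S1 and HepG2S3 libraries, each point a library and each bar its 95% Wilson counting interval. In HepG2S1 and HepG2S3, HNF4A, PROX1, NR1H4, FOXA2 and FOXA3 drop to below 1 CPM. FOXA1 falls from 99.7 and 82.5 CPM in HepG2 to between 7.87 and 12.0 CPM there, and NR5A2 is between 0.656 and 1.41 CPM in all 5 libraries.

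The level left over was set beside that of hepatocyte markers. The 9 hepatocyte markers (ALB, AFP, TTR, APOA1, APOB, SERPINA1, FGB, TF and AHSG) summed to 54719 and 37898 CPM in HepG2, which bears out its liver label, and all 9 were lower in HepG2S3. They summed to 0.812 CPM in HepG2S1, with 6 of 9 at 0 counts, and to 35.6 and 42.5 CPM in HepG2S3. As a share of the HepG2 mean, each marker was between 0% and 0.0682% in HepG2S1, while HNF4A stood at 0.372%, CEBPA at 2.44% and FOXA1 at 13.1%. In HepG2S3 replicate 2 the markers lay between 0.0596% and 0.102%. PROX1 at 0.0946% and NR1H4 at 0.0867% lay within that range, and HNF4A at 0.194%, FOXA3 at 0.293% (3 counts), CEBPA at 3.39% and FOXA1 at 9.06% lay above it, while FOXA2 had 0 counts. The range was narrow for markers from 54.8 CPM (TTR) to 12945 CPM (APOB) in HepG2. Whether reads at so low a share came from the HepG2S3 cells was not tested, and the fold changes of such genes carry this limit. In HepG2S3 replicate 1 the markers spread from 0.0369% to 0.713%, a range that HNF4A (0.200%) did not leave and CEBPA (2.80%) and FOXA1 (8.64%) did.

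Markers of other cell types moved with the members, and their part in the result was not tested. Of all genes tested in HepG2S3, 32.1% were lower and 31.4% higher. Of 5 cholangiocyte markers, 4 were lower in HepG2S3 and KRT7, a keratin of bile ducts and other simple epithelia, was higher, with 1.03 CPM on average in HepG2, 2733 CPM in HepG2S1 and 2912 CPM in HepG2S3. KRT19, one of the 4, lost its call without HepG2S3 replicate 2. The 8 fibroblast or stellate markers summed to 51.3 and 42.4 CPM in HepG2, 566 CPM in HepG2S1, and 359 and 472 CPM in HepG2S3. Of the 6 that were tested, 3 were higher, 1 (ACTA2) was lower and 2 were not called, so the sum does not speak for each marker. Those not called were COL1A1, with 16.7 CPM in HepG2 and 17.1 CPM in HepG2S3 on average, and PDGFRB, with 8.09 and 6.88 CPM. The 4 leukocyte markers summed to 2031 and 1159 CPM in HepG2, 113 CPM in HepG2S1, and 154 and 135 CPM in HepG2S3, and PTPRC (CD45), the defining one, was at or below 0.102 CPM in all 5 libraries. LYZ (lysozyme) went from 1987 and 1118 CPM in HepG2 to 0.406 CPM in HepG2S1 and 0.531 and 1.83 CPM in HepG2S3, and CD68, a lysosomal protein, from 43.9 and 41.3 CPM to 113 CPM and to 154 and 133 CPM, and both changes in HepG2S3 passed the test. Of 4 ovarian or Muellerian markers 3 were tested, of which 2 fell and MUC16, a mucin, rose, from 1 count in each HepG2 library to 21.3 CPM in HepG2S1 and 9.53 and 5.71 CPM in HepG2S3. The endothelial marker CDH5 was at 0.682 and 0.287 CPM in HepG2 and at 0 counts in the derivatives.

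The genes around the members were grouped into lists by role. Of all 16929 genes tested in HepG2S3, 32.1% were lower and 31.4% higher. From each liver or coregulator list the 3 genes highest in HepG2 are named, a choice that favours a fall. Of 24 other liver-enriched transcription factors, 18 fell in HepG2S3, 1 rose and 5 did not pass the test, with a median log2 fold change of -1.22 beside -0.01 over all genes tested. XBP1, a factor of the secretory apparatus, fell from 482 CPM to 114 CPM (log2 fold change -2.40, adjusted p 0.000146), and TBX3, a T-box factor of the liver bud, fell by 2.74 on the log2 scale (adjusted p 0.000145). CEBPG, a leucine zipper partner of other CEBP factors, fell by 0.52 (adjusted p 0.0177), a call that was lost when either HepG2S3 library was left out. The following were chosen after their values were seen. GATA4, which acts with FOXA factors, fell from 46.1 CPM to 0.0319 CPM, and NR0B2 (SHP), the repressor that NR1H4 induces, fell from 70.6 CPM to 0.0483 CPM. ONECUT2, a paralog of the hepatocyte factor HNF6, was the one that rose, from 54.3 CPM to 145 CPM on average and to 139 CPM in HepG2S1.

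The cofactors through which the members act lay nearer to 0. Of 17 coregulators, 10 fell, 2 rose (the coactivator gene PPARGC1B among them) and 5 did not pass the test. Their median was -0.51, and of all genes tested 32.1% were lower and 31.4% higher. NCOA3, a coactivator of nuclear receptors, fell by 1.26 on the log2 scale (adjusted p 0.00527), and the Mediator subunit gene MED1 fell by 0.51 (adjusted p 0.0153). The corepressor gene NCOR1 had a log2 fold change of 0.30 with an adjusted p of 0.0734 and was not called. MED1 lost its call when either HepG2S3 library was left out, and NCOR1 was called when either HepG2 library was.

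Genes known as targets of these factors in hepatocytes were nearly all lower. All 26 secreted protein genes that were tested fell in HepG2S3, beside 32.1% of all genes tested, with a median log2 fold change of -9.77. In each HepG2 library 26 of the list reached 1 CPM, against 14 and 12 in the HepG2S3 libraries. Those nearly absent from HepG2S3 were tested through HepG2 and could only fall. APOB, the protein of very low density lipoprotein, went from 12945 CPM to 0.305 CPM in HepG2S1 and 9.25 CPM in HepG2S3. ALB (albumin) had 12183 CPM in HepG2, 0 counts in HepG2S1 and 9.17 CPM in HepG2S3, and SERPINA1 (alpha-1 antitrypsin) had 8813 CPM, 0 counts and 5.48 CPM. Of 17 hepatocyte enzyme genes tested, 14 fell, 1 rose and 2 did not pass, with a median of -5.68. ACSL1, which activates fatty acids, fell by 3.43 on the log2 scale, and HPD of tyrosine breakdown fell by 8.10. The gene that rose was CPS1, the first enzyme of the urea cycle, from 52.4 CPM to 1509 CPM. Of 14 bile acid genes and targets of NR1H4 or NR5A2 that were tested, 12 fell, 1 rose (SLC27A5, which joins bile acids to coenzyme A) and 1 did not pass, with a median of -5.82. ABCC2, an export pump of bile, fell by 3.97 on the log2 scale, whereas SCARB1, the receptor for high density lipoprotein, had a log2 fold change of 0.06 with an adjusted p of 0.695.

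Transcription factors that induce the epithelial-mesenchymal transition went the other way. Of 8 tested, 7 rose and 1 (SNAI1) fell, beside 31.4% of all genes tested that were higher and 32.1% that were lower. The median log2 fold change was 6.51. The 3 named next had the highest mean CPM in HepG2S3, a choice that favours a rise. TWIST1 and SNAI2, nearly absent from HepG2, were tested through HepG2S3 and could only rise. TWIST1 had 0 counts in both HepG2 libraries and 22.3 CPM in HepG2S1 and 28.2 CPM in HepG2S3, SNAI2 went from 0.0997 CPM to 30.5 and 52.8 CPM, and ZEB1 went from 29.7 CPM to 45.3 and 54.7 CPM. The ZEB1 change in HepG2S3 (log2 fold change 0.56, adjusted p 0.0246) was lost when either HepG2S3 library was left out.

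**Figure D2:**
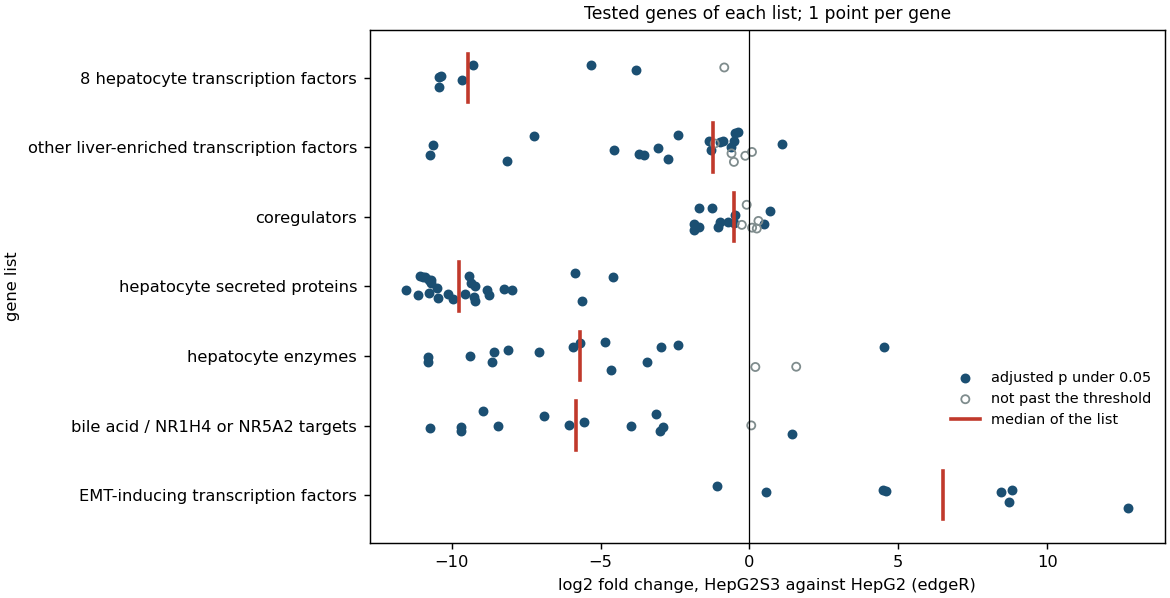
edgeR log2 fold change of HepG2S3 against HepG2 for each tested gene of the 7 lists, 1 point per gene, with filled points for an adjusted p under 0.05, open points for the rest and a red line at each list's median. The members, the secreted proteins and most enzymes lie far below 0, the coregulators lie nearer to 0 with a median of -0.51, and the EMT-inducing factors lie mostly above 0.

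Over all 17 lines, 3 patterns of level were seen. HNF4A reached 1 CPM in 1 of 17 lines, HepG2, had 0 counts in 11 and did not exceed 0.109 CPM outside the HepG2 lines. PROX1 reached 1 CPM in 7 lines but 10 CPM in HepG2 alone, with the next level, 4.65 CPM, in U100, and CEBPA likewise reached 10 CPM in HepG2 alone, followed by U100 at 5.03 CPM and HCC4006P2 at 4.92 CPM. For these 3 genes, 15 of 16 steps between neighbours in the order of levels overlapped in their counting intervals, and the step below HepG2 was the one that did not. NR1H4 had 2 lines of 10 CPM or more, HepG2 and HCC827GR, and 0 or 1 count per library outside these and the HepG2 derivatives.

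The FOXA genes were spread over lines of several tissues. FOXA1 reached 1 CPM in all 17 lines and 10 CPM in 10 of them. Its highest level was in the lung line HCC4006P2 (159 CPM), followed by HepG2 (91.1 ± 12.2 CPM, SD, n = 2), HCC827P (55.6 CPM), HCC4006GR (43.0 CPM) and HCC4006P1 (41.1 ± 11.3 CPM, SD, n = 2), and the last 2 overlapped. From IGROV-1 at 12.2 CPM down to PancB1Q at 7.60 CPM, neighbours overlapped at every step. FOXA2 was highest in HepG2 (40.2 ± 3.66 CPM, SD, n = 2) and then in the pancreatic lines PancB1Q (24.2 CPM), PancB1V (22.5 CPM) and PancVB (15.8 CPM), and PancB1Q and PancB1V did not differ beyond counting error. FOXA3 reached 1 CPM in 4 lines, HepG2 and the lung lines HCC4006P2 (12.9 CPM), HCC4006P1 (7.70 and 5.23 CPM) and HCC4006GR (5.82 CPM).

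The tissue labels of these lines were set beside their markers. The 5 lung markers summed to 266 CPM in HCC4006P2 and 91.7 CPM in HCC827P, the 4 ovarian or Muellerian markers to between 417 and 665 CPM in the 5 ovarian lines, and the pancreatic sum of 2545 CPM in PancVB was nearly all KRT7, with PTF1A at 0 counts. The ovarian sum did not set the ovarian lines apart, since it was 642 CPM in the lung line HCC827P and 274 CPM in HCC827GR, mostly MUC16 (618 and 238 CPM).

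NR5A2 had its highest levels outside the liver lines. HCC827GR held 167 CPM and its parental line HCC827P 40.3 CPM, followed by PancVB at 17.6 CPM and IGROV-1 at 15.2 CPM, whose intervals overlapped. The other 13 lines were at or below 2.64 CPM. In CPM per kb of exon, NR5A2 had 22.1 in HCC827GR, near the 22.2 and 20.8 of HNF4A in HepG2.

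**Figure D3:**
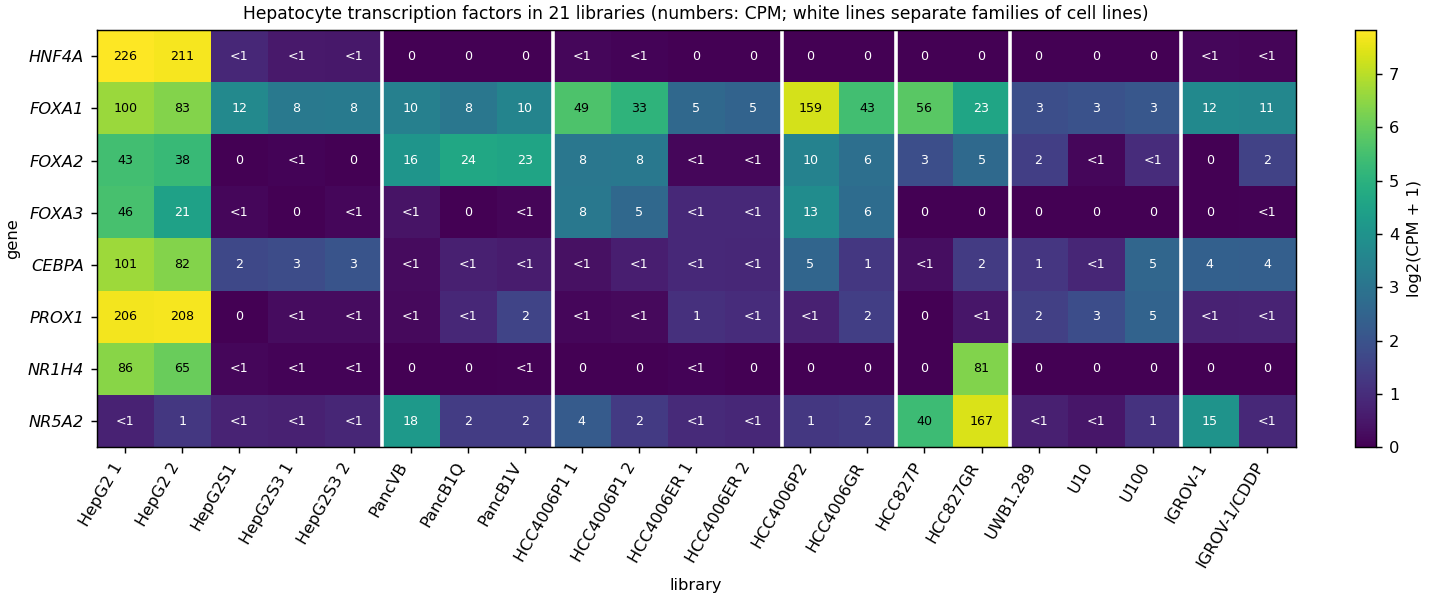
Level of each member in all 21 libraries, with genes in rows, libraries in columns, colour for log2(CPM + 1) and numbers for CPM, and white lines between families of lines. HepG2 is high in 7 of 8 genes, the lung lines other than HCC4006ER in FOXA1, the pancreatic lines in FOXA2, and HCC827GR in NR1H4 and NR5A2.

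Each resistant line was then compared with its parental line. With 1 library in at least 1 line of 8 of the 10 pairs, the difference of log2(CPM + 1), which understates the change of low genes, is given with no test, and differences past 1 or below -1 were counted. Over 80 values, 25 were below -1 and 7 above 1. Member counts are of all 8, while the shares beside them are of genes of 1 CPM or more in either line. That level was reached by 8 members in the HepG2S1 and HepG2S3 pairs, 6 in HCC4006GR and 5 in HCC4006ER, HCC827GR and U100. It was reached by 4 in PancB1V, U10 and IGROV-1/CDDP and by 3 in PancB1Q. All members past the bounds are among these. HepG2S1 had 7 members below -1 and HepG2S3 likewise 7, where 18.4% and 17.7% of all genes of 1 CPM or more were below -1. HCC4006ER had 3 members below -1 (10.8% of all genes) and HCC4006GR 3 (7.47%), followed by PancB1Q 1 (9.41%), PancB1V 1 (7.25%), HCC827GR 1 (7.67%), U10 1 (5.11%), IGROV-1/CDDP 1 (7.21%) and U100 0 (1.73%). Above 1 were 3 members in HCC827GR (10.6% of all genes), 2 in U100 (6.43%), 1 in PancB1V (8.89%) and 1 in IGROV-1/CDDP (5.55%), and 0 in HepG2S1 (25.5%), HepG2S3 (27.3%), PancB1Q (6.1%), HCC4006ER (17%), HCC4006GR (7.75%) and U10 (6.27%). The HCC4006ER shares include the genes emptied in HCC4006P1 replicate 1, whose differences are too high, and with these genes left out they were 10.9% below -1 and 12.7% above 1, an alternative chosen after seeing the data. Pairs that share a parental line share its values, so HepG2S1 and HepG2S3 are not independent of each other, nor are PancB1Q and PancB1V or U10 and U100. The HCC4006ER and HCC4006GR pairs share no library, but their parental lines carry the same cell line identifier, so they may not be independent either. Over all genes the median difference of HepG2S1 was 0.25 and became -0.17 with TMM-scaled library sizes, that of HepG2S3 was 0.28 and became -0.11, and that of PancB1Q was -0.12 and became 0.08. The NR5A2 differences of HepG2S1 and HepG2S3 are smaller than this shift.

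FOXA1 was lower in the 3 lung pairs. It went from 49.1 and 33.1 CPM in HCC4006P1 to 5.21 and 4.62 CPM in HCC4006ER, from 159 CPM in HCC4006P2 to 43.0 CPM in HCC4006GR and from 55.6 CPM in HCC827P to 23.5 CPM in HCC827GR. The differences were -2.83, -1.86 and -1.21, in the direction of the -2.83 of HepG2S1 and -3.34 of HepG2S3. In the pancreatic and ovarian pairs they stayed between -0.30 and 0.25.

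FOXA2 passed these bounds in 5 pairs, as FOXA1 did, but in 1 of them it was higher, and FOXA3 passed them in 4. FOXA2 went from 7.59 and 7.69 CPM in HCC4006P1 to 0.101 and 0.103 CPM in HCC4006ER (2 counts each), a difference of -2.97. In the ovarian lines it went from 1.72 CPM in UWB1.289 to 1 count in U10 (-1.31) and from 0 counts in IGROV-1 to 1.94 CPM, or 49 counts, in IGROV-1/CDDP (1.55), at least 17.8-fold higher. FOXA3 went from 12.9 CPM to 5.82 CPM in the HCC4006GR pair, a difference of -1.03 that was -0.97 with TMM-scaled library sizes.

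CEBPA and PROX1 were low outside HepG2, and their larger differences there rest on few counts. CEBPA went from 4.92 to 1.39 CPM in HCC4006GR (-1.31), from 0.231 to 1.54 CPM in HCC827GR (1.05) and from 1.38 to 5.03 CPM in U100 (1.34). PROX1 went from 0.138 to 2.01 CPM in PancB1V (1.40) and from 1.81 to 4.65 CPM in U100 (1.01, and 0.94 with TMM-scaled library sizes).

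NR5A2 had differences of -0.26 and -0.25 in HepG2S1 and HepG2S3 and 4 differences past 1 elsewhere. PancVB had 17.6 CPM, and PancB1Q and PancB1V had 1.61 CPM each, 10.9-fold lower. IGROV-1 had 15.2 CPM and IGROV-1/CDDP 0.870 CPM, 17.5-fold lower. HCC827GR had 167 CPM against 40.3 CPM in HCC827P, 4.14-fold higher (3.80 to 4.50). The resistant lines of both pancreatic pairs and of the cisplatin pair were thus below their parental line, and HCC827GR was above its own.

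**Figure D4:**
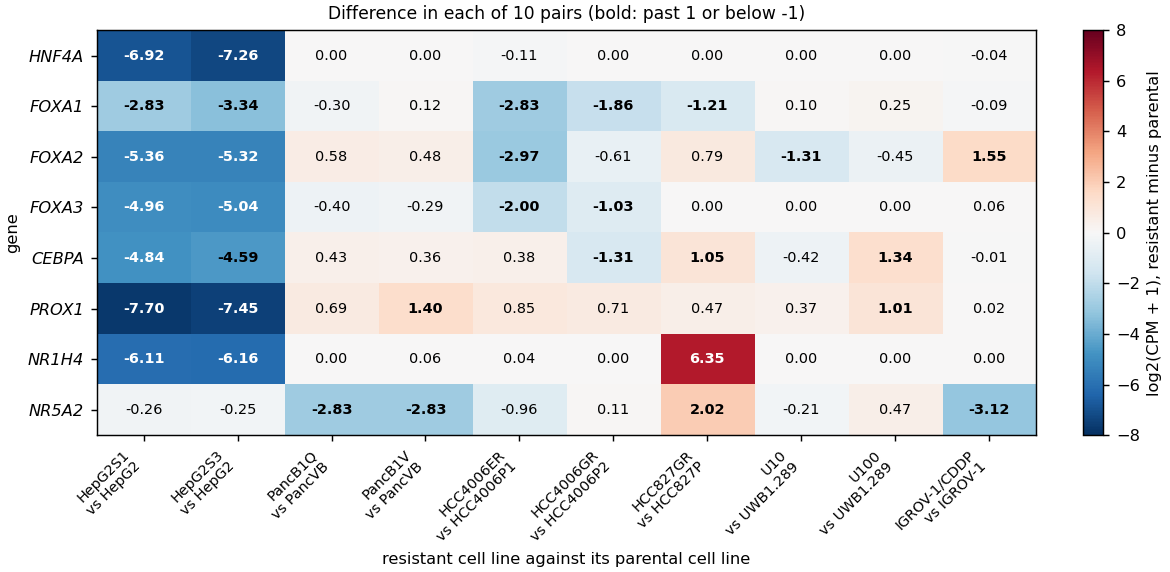
Difference of log2(CPM + 1), resistant minus parental, of the 8 members in the 10 pairs, with the value written in each cell, bold past 1 or below -1. The HepG2S1 and HepG2S3 columns are negative in all 8 genes, FOXA1 is negative in the 3 lung pairs, and NR1H4 in HCC827GR (6.35) is the largest positive value.

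HCC4006ER against HCC4006P1 was the other pair with 2 libraries on each side. Of 6 members tested, 4 fell and 1 rose, beside 24.9% of 12791 genes tested that were lower and 24.1% that were higher. FOXA2 had an edgeR log2 fold change of -6.11 ± 0.39 (SE, adjusted p 6.64e-05), FOXA1 one of -2.99 ± 0.17 (adjusted p 4.30e-05) and FOXA3 one of -2.82 ± 0.26 (adjusted p 0.000277), and for each of these 3 the HCC4006ER libraries lay below both HCC4006P1 libraries. FOXA3 kept 0.860 and 0.873 CPM in HCC4006ER. NR5A2 went from 3.74 and 1.54 CPM to 0.911 and 0.822 CPM (log2 fold change -1.51, adjusted p 0.0207), a call that was lost without HCC4006ER replicate 2 (adjusted p 0.0552) and with all genes kept in the fit (adjusted p 0.0939). It was -0.97 without HCC4006P1 replicate 1 (adjusted p 0.0422). PROX1 rose from 2 and 3 counts in HCC4006P1 (0.107 and 0.154 CPM) to 22 and 19 counts in HCC4006ER (1.11 and 0.976 CPM), with a log2 fold change of 2.98 ± 0.49 (SE, adjusted p 0.00321). CEBPA had a log2 fold change of 1.03 with an adjusted p of 0.14, and was called without HCC4006P1 replicate 2 (1.84, adjusted p 0.0174). HNF4A and NR1H4 had too few counts to be tested.

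The liver lists did not fall together in this pair, but the cholangiocyte markers did. Of 16 other liver-enriched factors, 3 fell, 3 rose and 10 did not pass, and of 14 coregulators 2 fell and 5 rose. Of 5 secreted protein genes tested, 1 fell and 1 rose. All 4 cholangiocyte markers that were tested fell, with a median log2 fold change of -3.88 beside 0.01 over all genes, and the 5 of the list summed to 4835 and 3914 CPM in HCC4006P1 and 239 and 294 CPM in HCC4006ER. KRT19, a keratin of simple epithelia, went from 1939 and 1507 CPM to 2.63 and 1.59 CPM, and SOX9, a factor gene of ducts and progenitors, from 174 and 132 CPM to 84.0 and 86.7 CPM. All 8 EMT-inducing factors that were tested rose, where 24.9% of all genes tested in this pair were lower and 24.1% higher. The 8 fibroblast markers summed to 25.0 and 17.3 CPM in HCC4006P1 and 1700 and 1460 CPM in HCC4006ER, and lung markers to at most 0.668 CPM in all 4 libraries, so that the lung label was not borne out by its defining markers NKX2-1, SFTPB, SFTPC, NAPSA and SCGB1A1. The part of these markers in the result was not tested.

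Whether the 2 replicated pairs differed was tested with the interaction of the 8 libraries. For 6 of 8 members the HepG2S3 change was lower than the HCC4006ER change, beside 27.7% of 14479 genes that were lower and 28.2% that were higher. The difference was -13.33 for PROX1 (adjusted p 6.13e-08), -6.76 for FOXA3 (0.000302), -6.34 for CEBPA (1.02e-05), -4.25 for FOXA2 (0.0101) and -0.79 for FOXA1 (0.0146). PROX1 thus differed in direction, with a change that passed the test in each pair, and CEBPA fell in HepG2S3 with a change in HCC4006ER that was not called. FOXA1 lost the call without HepG2S3 replicate 1 (adjusted p 0.0628) or HCC4006ER replicate 1 (0.0860), and FOXA2 without HCC4006ER replicate 2 (0.0504). The sizes for FOXA2 and FOXA3 rest on 0 to 3 counts per HepG2S3 library. Without HepG2S3 replicate 1 that of FOXA2 was -7.07, and without HepG2S3 replicate 2 that of FOXA3 was -10.11. NR1H4 was called too, but HCC4006 had at most 1 count of it per library, so its value is not given a reading. NR5A2 did not pass, at 0.68 (adjusted p 0.411). HNF4A did not pass either, at -5.24 ± 31.3 (SE, adjusted p 0.966), with 2 and 1 counts in HCC4006P1 and 0 in HCC4006ER. DESeq2 called HNF4A at -6.30 (adjusted p 0.000647), so that its result depends on the tool.

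HCC827GR stood apart by NR1H4. HCC827P had 0 counts of NR1H4 and HCC827GR had 1255 counts, or 80.7 CPM, within the 64.5 to 86.1 CPM of the HepG2 libraries and at least 466.5-fold above its parental line. NR5A2 stood beside it at 167 CPM. HNF4A and FOXA3 had 0 counts in both HCC827 libraries, and FOXA1 was lower in HCC827GR. Each line had 1 library, so there is no replicate check.

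Liver genes were also present in HCC827GR. Among 9 secreted protein genes of 1 CPM or more, 5 were above 1 on the difference scale, among 9 enzymes 5, and among 17 other liver-enriched factors 7, beside 10.6% of all genes. The fibrinogen genes FGA (2.31 to 89.3 CPM), FGB (58.7 to 641 CPM) and FGG (6.11 to 79.1 CPM), the enzyme gene TDO2 (0 to 22.4 CPM), and the factor genes HNF4G (61.9 to 127 CPM), GATA6 (7.56 to 36.6 CPM) and PPARGC1A (0 to 23.9 CPM) were chosen after their values were seen. Albumin stayed at 0.193 CPM. None of 6 bile acid genes was above 1, and NR0B2, a target of NR1H4, went from 0.0577 to 0.322 CPM. The lung markers summed to 91.7 CPM in HCC827P and 28.1 CPM in HCC827GR, and ZEB1 went from 6.23 to 44.1 CPM, and their part in the result was not tested.

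**Figure D5:**
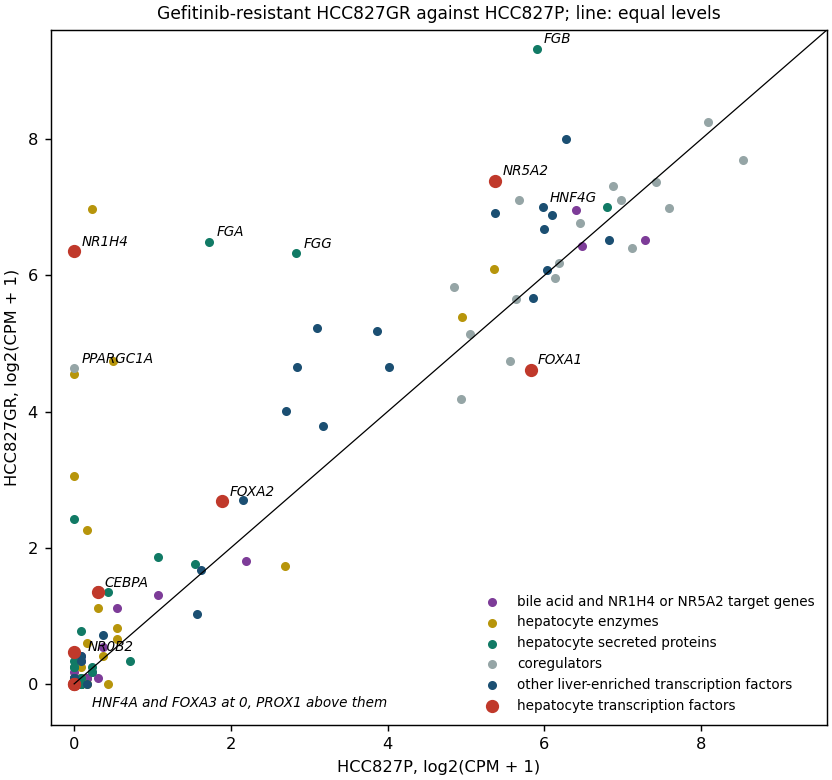
Level as log2(CPM + 1) in HCC827GR (vertical) against HCC827P (horizontal), 1 library each and 1 point per gene, for the members and the liver gene and coregulator lists, with a line of equal levels. NR1H4 goes from 0 to 80.7 CPM and NR5A2 from 40.3 to 167 CPM, while HNF4A stays at 0.

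No member was called over the 7 resistant and 7 parental profiles, in which counts were summed per parental line. HCC4006P1 and HCC4006P2, to which the paper gives the same identifier, were counted as separate parental lines. Of 5 members tested with the parental line as a block, FOXA1 had the lowest p, with a log2 fold change of -1.35 ± 0.54 (SE), an unadjusted p of 0.0359 and an adjusted p of 0.982. edgeR called 0 of 12622 genes, with 562 (4.45%) at an unadjusted p under 0.05, and DESeq2 called 87 genes and 0 members.

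Other genes with a like pattern were sought over the 17 line means of log2(CPM + 1), among 16363 genes, by Pearson's r as a description. The lines share no library, but 10 of them derive from the other 7, of which HCC4006P1 and HCC4006P2 share an identifier. For HNF4A the nearest were LYZ (0.991), AHSG (0.991) and PGC (0.985), and without HepG2 the r with LYZ was 0.247, so that the likeness rests on 1 line. For PROX1 they were ASGR1 (0.962), KRT23 and PRIMA1, and for CEBPA DUSP9 (0.937), MST1 and its near copy MST1P2, whose reads may be shared. For NR1H4 they were LBP, CYP3A7 and FGA, and the r with LBP was 0.999 with HepG2 and 0.998 without it. NR1H4 exceeded 0.102 CPM in HepG2 and HCC827GR alone, so the second value rests on HCC827GR. FOXA1 was nearest to C1GALT1 (0.910, and 0.892 without HepG2) and TASP1, FOXA2 to TGFBR2 (0.875, and 0.846 without HepG2), ARHGAP18 and CMIP, and FOXA3 to POU2AF3 (0.985, and 0.973 without HepG2) and the near-identical pair C4B and C4A, whose split is uncertain. NR5A2 was nearest to RIMKLA (0.898), LINC01303 and LINC02873. Among the members, HNF4A and PROX1 had an r of 0.891 that became -0.457 without HepG2, whereas FOXA1 and FOXA3 had 0.763 and 0.722.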

How the data were processed

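RNA sequencing of 21 libraries of 17 cell lines was analysed. The authors deposited raw counts of reads per Ensembl gene, with no normalization. Per the submitters' processing notes these came from Bowtie, TopHat, SAMtools and HTSeq on hg19, with versions not given in the sources used here. The labels name a stranded mRNA kit, the methods also a 3′ kit mapped with STAR, and which library used which is not given. If any used the 3′ kit, its CPM per kb understate long genes. Rows that name no gene (28.0% to 42.8% of all reads) were left out. Symbols and GRCh37 positions were matched for 45100 of 53515 genes (84.3%) with GENCODE.

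Resistant lines were paired with parental lines by the labels and methods. edgeR 4.0.16 (TMM, filterByExpr, quasi-likelihood test, Benjamini-Hochberg adjusted p under 0.05, R 4.3.3) was fitted over the whole gene table, in each comparison on its own libraries alone. Genes past the stop in HCC4006P1 replicate 1 or without a GRCh37 position were left out of fits that hold that library. Differences of single libraries used a pseudocount of 1 CPM, with genes of 1 CPM or more in either line as background. Alternatives were DESeq2 1.42.0 and its size factors, no filter, all genes kept, a pseudocount of 0.1 CPM, TMM-scaled totals, a replicate block and each library left out in turn. Python 3.11.15, numpy 2.4.6, pandas 2.3.3, scipy 1.17.1 and matplotlib 3.10.9 were used, and the fits were tested on simulated counts.

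The members, lists and tests were chosen with earlier results of these data known. Named are the members, the 3 genes of each list with the highest mean CPM in HepG2 (for the EMT-inducing factors in HepG2S3) and the 3 genes nearest to each member in r among those of 1 CPM or more in at least 2 lines. Choosing list genes by their level in 1 line favours genes that are lower in the line it is compared with. Replicate libraries of a line differed by more than counting error, so none was counted as a duplicate. Some genes that meet these rules are not reported here, and HP and PECAM1 were not analysed here.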

Additional observations from a re-analysis of the deposited data

Results flagged for a closer look

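Members whose change differed between the replicated pairs by the edgeR interaction test were PROX1 (HepG2S3 change minus HCC4006ER change of -13.33 on the log2 scale), FOXA3 (-6.76), CEBPA (-6.34), FOXA2 (-4.25) and FOXA1 (-0.79). In CEBPA the HCC4006ER change on its own did not pass the test. The FOXA1 and FOXA2 differences were each lost when a single library was left out, as given with the test, and the sizes for FOXA2 and FOXA3 reached -7.07 and -10.11 with a HepG2S3 library left out.

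Members with opposite differences of log2(CPM + 1) in pairs of other tissues were listed too, and these differences between pairs were not tested. FOXA2 had -5.36 in HepG2S1 and 1.55 in IGROV-1/CDDP. CEBPA had -4.84 in HepG2S1 and 1.34 in U100. PROX1 had -7.70 in HepG2S1 and 1.40 in PancB1V. NR1H4 had -6.16 in HepG2S3 and 6.35 in HCC827GR. NR5A2 had -3.12 in IGROV-1/CDDP and 2.02 in HCC827GR. All of these lines but HepG2, HepG2S3, HCC4006P1 and HCC4006ER had 1 library.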

How the results depend on the processing

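The count of members called in HepG2S3 was 7 to 8 of 8 under each alternative, and in HCC4006ER 4 to 6 of 6. Over all genes, HCC4006ER had 6266 calls, between 4046 and 8370 with 1 library left out and 3417 with all genes kept, where the genes emptied in 1 library are in the fit. HepG2S3 had 10744 calls, and between 7341 and 13242 with 1 library left out. Over 7 against 7 profiles, DESeq2 called 87 genes where edgeR called 0, and the cause was not tested. Member differences above 1 went from 7 to 13 with a pseudocount of 0.1 CPM, a smaller constant that widens the differences of low genes. With HepG2 replicate 1 or 2 left out in turn, where the lone library is assumed to vary as HepG2S3 did, COL1A1 (-0.28 in the fit of all 4) was at 0.19 and -0.65, PDGFRB (-0.56) at 1.31 and -1.35, and SCARB1 (0.06) at 0.15 and -0.031.

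Under a replicate block, HepG2S3 had 10561 calls and 7 member calls, HCC4006ER had 7787 and 5 member calls, and the interaction had 8196 and 6. The numbers are letters of the line names, and titles give both HepG2 libraries one number and both HepG2S3 libraries another. The correlation of deviations was 0.0109 for the HepG2 pair and 0.264 for the HCC4006 pair, over 2 pairs each, so the numbers were not taken to pair the libraries. Of 835 values of single genes and lists, 729 were kept, 83 moved, 13 lost and 7 gained a call, and 3 changed sign. A tested value was kept by its direction and side of the threshold, and a count by staying near its main value. Genes at 1 to 3 counts are limited by depth.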

Other observations

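The genes named here were chosen after their values were seen. GATA6 and TBX3 stood higher in HCC4006ER and HCC4006GR, and GATA6 also in HCC827GR, while TBX3 of that pair is not reported here. Of 16 other liver-enriched factors tested in HCC4006ER, 3 fell and 3 rose, beside 24.9% and 24.1% of all genes. Of 17 in HCC4006GR, 2 were below -1 and 5 above 1, beside 7.47% and 7.75%. Of 17 in HCC827GR, 0 were below -1 and 7 above 1, beside 7.67% and 10.6%. GATA6, a zinc finger factor of endoderm, had 5.08 and 5.38 CPM in HCC4006P1 and 23.0 and 23.6 CPM in HCC4006ER (edgeR log2 fold change 2.19, adjusted p 0.000275), 1.54 CPM in HCC4006P2 and 12.6 CPM in HCC4006GR, and 7.56 CPM in HCC827P and 36.6 CPM in HCC827GR. TBX3, which fell in HepG2S3, had 21.9 and 16.2 CPM in HCC4006P1 and 93.0 and 84.5 CPM in HCC4006ER (log2 fold change 2.28, adjusted p 4.27e-05), with 29.1 and 95.4 CPM in the HCC4006GR pair. PPARGC1A, a coactivator of nuclear receptors, stood at 184 CPM in the parental IGROV-1 against 7.00 CPM in its cisplatin-resistant line, where NR5A2 was also lower, and HNF4G, the paralog of HNF4A, had 9.02 CPM in PancVB and 1.33 and 2.94 CPM in PancB1Q and PancB1V. The single-library pairs have no replicate check.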
